A study of Mus musculus with 27 samples.

Results

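HepOrgs are organoids that grow from primary mouse hepatocytes embedded in Matrigel, and the question here is what a second week in the expansion medium HM-Wnt did to their transcriptome. All 3 libraries titled as passage 2 HepOrgs in HM-Wnt at 2 weeks (14 days in the labels) were compared with all 3 at 1 week (7 days), that is 6 of the 27 libraries of the series that the labels map to a condition. The 6 cultures share the C57BL/6 background and the WT genotype. HM-Wnt is a basal medium with gastrin, EGF, RSPO1 conditioned medium, HGF, FGF7, FGF10, nicotinamide, the GSK3 inhibitor CHIR99021, the TGF-beta receptor inhibitor A83-01, a ROCK inhibitor and WNT3a conditioned medium. The 6 HepOrg libraries that were moved at passage 2 into the minimal medium MM (the basal medium with WNT conditioned medium and ROCK inhibitor only, by the labels) and taken at the same 2 times serve for comparison, as a culture with fewer added factors. The labels give no animal, litter or culture for any HepOrg library, so a p value here measures the spread between libraries, which may in part be technical.

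Hepatocytes make most of the proteins of blood plasma, take up and excrete bile acids, and detoxify foreign compounds with cytochromes P450 and conjugating enzymes. In the body they rarely divide, and their programme is held by a network of transcription factors around HNF4A. In culture with EGF, HGF and Wnt signals they can re-enter the cell cycle, and dedifferentiation typically lowers the secreted and metabolic genes and raises genes of the cytoskeleton, of the matrix and of bile duct cells.

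No single gene passed edgeR's adjusted test between the times, the test meant below unless another tool is named, and DESeq2 called 15. Groups of genes nevertheless lay apart by the time of culture: for most transcripts of the mitotic machinery and of the mitochondrial genome all 2 weeks libraries lay below all 1 week libraries, for most cytosolic ribosomal proteins they lay above, and the medians of secreted hepatocyte products and of cytochromes P450 were lower at 2 weeks. These groups were chosen with earlier results of these data known and were not tested as groups. The median of the hepatocyte transcription factors differed by 0.02 on the log2 scale. Lamb3, a laminin chain of epithelial basement membranes, was the single gene with the smallest p value.

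The 6 libraries held 30289364 to 48767576 counts on genes, with a count in 14311 to 15070 genes. Replicate 2 of 1 week stood apart from the others (median Spearman correlation across genes with the other libraries 0.958, and 0.968 to 0.983 for the other libraries), and replicate 3 of 2 weeks was the next (0.968). Where a named gene's log2 fold change moved by more than 1.5 times without a library, the value without it follows or stands among the results that depend on the processing. The label of hepatocyte organoids was checked against marker lists. All 10 hepatocyte markers had counts in every library and summed to 44377 to 55795 CPM (counts scaled to a common library size, here always after TMM normalisation) at 1 week and to 26937 to 32887 at 2 weeks. The 15 mesenchyme markers summed to 46 to 108 CPM and 36.5 to 129 CPM, and the 10 endothelial markers to 1.28 to 3.44 and 1.03 to 2.26. The 12 immune markers summed to 18.4 to 20.9 and 19.9 to 50.6, with Cd3e, Clec4f and Timd4 at 0 counts in all 6 libraries and Adgre1, Cd79a and Marco at 3 counts or fewer in each. Among the endothelial markers, Emcn was at 0 in all 6 and Clec4g and Kdr at 3 counts or fewer in each.

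Of 12989 genes with enough counts, 0 passed an adjusted p of 0.05 in edgeR's quasi-likelihood test (0.0%), and the smallest adjusted p was 0.556. At an unadjusted p under 0.05 stood 1134 genes (8.73%), of which 498 (3.83%) were higher and 636 (4.9%) lower at 2 weeks. DESeq2 called 15 genes, 5 higher and 10 lower, and had 1395 at an unadjusted p under 0.05. With the replicate number as a block, edgeR called 0, with 2047 at an unadjusted p under 0.05 and a smallest adjusted p of 0.0655. The precision was limited by 3 libraries a time. The median standard error of a log2 fold change was 0.264 over all genes tested and 0.207 over the 7814 genes whose log2 CPM averaged 3 or more, for which the 95% interval reached a median of 0.453 to either side. A log2 fold change over 1 in size was fitted for 755 genes. In the plot of fold change against unadjusted p, no gene stands clear of the others, and most mitosis and mitochondrial genes lie on the left and the ribosomal genes on the right.

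**Figure D1:**
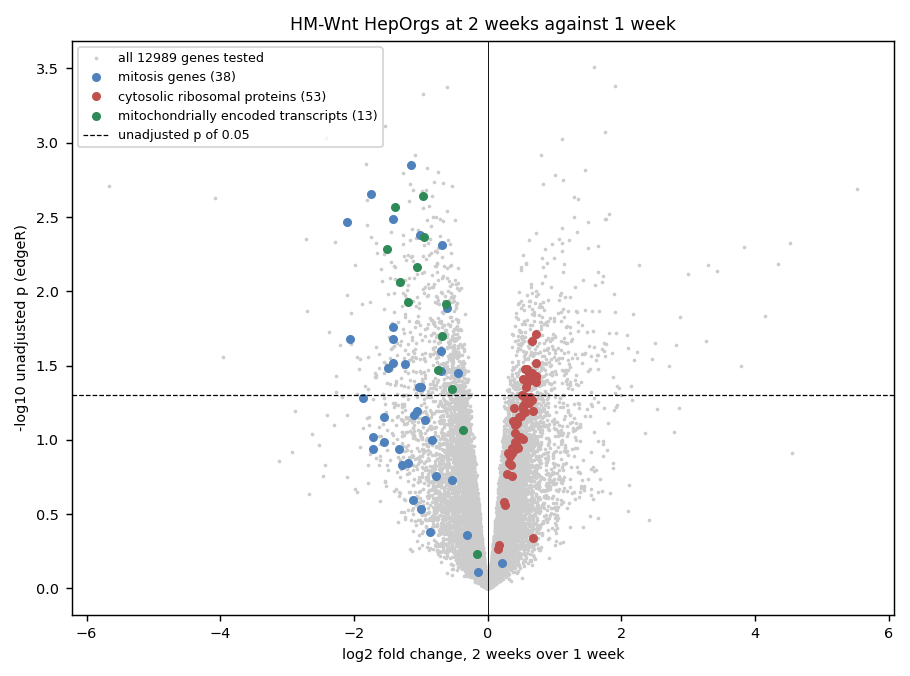
Log2 fold change (2 weeks over 1 week, x axis) against the minus log10 of the unadjusted edgeR p (y axis) for the 12989 genes tested, 1 point per gene, with 3 gene lists in colour. The smallest p belongs to Lamb3 (0.000308), and no gene has an adjusted p below 0.556.

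A second count, which needs no model, is used for the gene groups: the genes whose 3 values at 2 weeks all lay above, or all below, the 3 values at 1 week. Over all genes tested this held for 941 genes higher at 2 weeks (7.24%) and 976 lower (7.51%). These shares are the background for each count below that names no other scaling, medium or left-out library. Members of a list can rise and fall together in a library, so they are not independent. A list share above the background is a description and not a test. On the deposited TPM values the split was 21.5% higher and 2.36% lower, and the median of all genes was shifted by 0.26 on the log2(TPM + 1) scale. Such counts also rise when a library is left out, to 9.71% to 16.1% higher and 10.1% to 17.3% lower over all genes. RLE size factors gave 7.12% and 7.48%.

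Higher at 2 weeks with the smallest p values were 8 genes named by rule, with no overlap between the times and a log2 CPM averaging 3 or more. None passed edgeR's adjusted test. Niban2 (GRCm39 chr2:32766126-32815266) had 3.51, 2.29 and 6.93 CPM in replicates 1 to 3 at 1 week and 15.5, 9.81 and 23.2 CPM at 2 weeks. Its log2 fold change was 1.91 (SE 0.39, 95% interval 1.06 to 2.77, unadjusted p = 0.000415, adjusted p = 0.556). The groups did not overlap, and replicate 3 was the highest at either time. Cyp2s1 (chr7:25501895-25516338), a cytochrome P450 found mainly outside the liver, had 4.16, 2.05 and 1.96 CPM and then 10.5, 10.7 and 6.9 CPM (log2 fold change 1.76, SE 0.48). St14, which encodes the membrane serine protease matriptase of epithelia, had 12.7, 6.27 and 15 CPM and then 22.3, 25.3 and 39.5 CPM (1.35, SE 0.35). Abcc3, a basolateral export pump for bile salts and conjugates, had 86.9, 52 and 85.8 CPM and then 120.2, 126 and 204 CPM (1.00, SE 0.24). Amotl2, an angiomotin of tight junctions that binds YAP, had 15.5, 9.95 and 17.1 CPM and then 27.8, 24.1 and 41.2 CPM (1.12, SE 0.28). In each of these 4 genes 1 week replicate 2 or 3 was the lowest of the 6 libraries. The remaining 3 were Misp, an actin-binding protein of the mitotic spindle cortex (1.46), the guanine nucleotide exchange factor Arhgef16 (0.82) and the asparaginase Aspg (0.79).

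Lower at 2 weeks with the smallest p values were likewise 8 genes. Akr1c18 (chr13:4182614-4200672), the hydroxysteroid dehydrogenase that inactivates progesterone, had the tightest 1 week values of these, 108.3, 107.6 and 109.3 CPM, against 42.3, 42.2 and 50.1 CPM at 2 weeks (log2 fold change −1.27, SE 0.31, unadjusted p = 0.0016, adjusted p = 0.556). Rrm2, the regulatory subunit of ribonucleotide reductase, had 44, 48 and 45.6 CPM and then 22.9, 23 and 27.2 CPM (−0.91, SE 0.22). In both genes the gap between the times was wider than the range within either. Prpf4b, a kinase of the splicing machinery, had 39.6, 42.7 and 33.6 CPM and then 26.3, 25.1 and 24.5 CPM (−0.61, SE 0.12). Luc7l2, a protein of the U1 snRNP, had 22.4, 28.5 and 16.7 CPM and then 10.9, 12.7 and 10.7 CPM (−0.97, SE 0.20). Rapgef4, a Rap exchange factor switched on by cAMP, had 57.9, 74.3 and 21.5 CPM and then 14.3, 16.6 and 12.2 CPM (−1.83, SE 0.44). Here the 2 weeks values lay close together and the 1 week values ranged widely. Cyp2a12, a cytochrome P450 of hepatocytes, had 32.1, 10.5 and 5.13 CPM and then 3.95, 2.49 and 2.41 CPM (−2.41), and −1.36 without 1 week replicate 1. Phf21a, a reader of unmethylated histone H3, was at −0.74 and the nucleosome-binding protein Hmgn5 at −1.09.

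**Figure D2:**
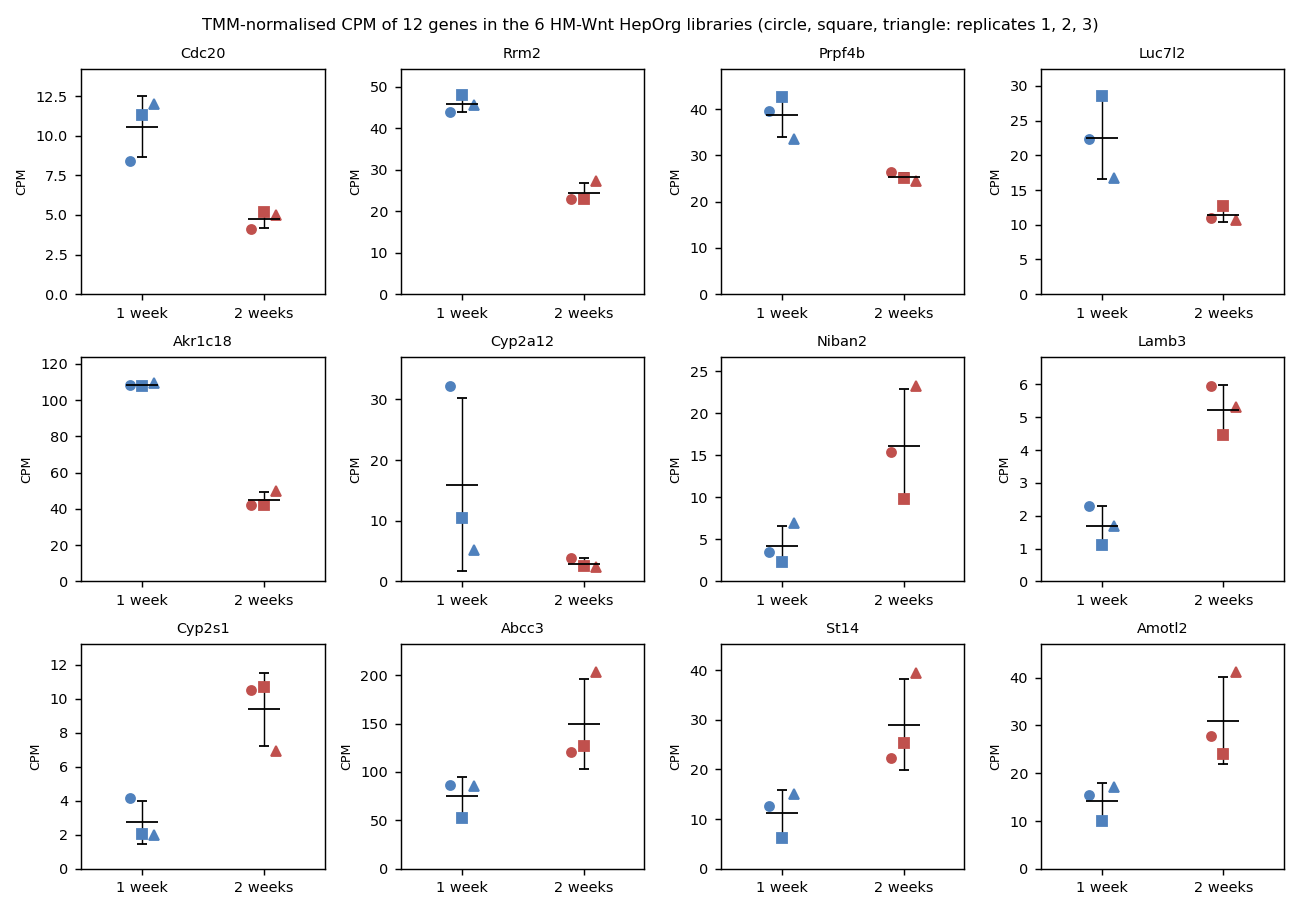
TMM-normalised CPM (y axis, from 0) of 12 genes at 1 week and 2 weeks in HM-Wnt. Each point is 1 library (circle, square and triangle for replicates 1, 2 and 3), the black bar the mean and the error bar the SD over 3 libraries; Akr1c18 and Rrm2 leave a wide gap between the times, whereas in Cyp2a12 a single 1 week library (replicate 1, 32.1 CPM) lies far above the other libraries.

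The 15 genes that DESeq2 called are listed here with its adjusted p values, which edgeR did not share. Over the alternatives tried each of the 15 had its lowest adjusted p in DESeq2, and the highest was 1. Niban2, Lamb3 (both 0.00583), Ifit3b (0.0136), Stk32b (0.036) and Map3k6 (0.0499) were higher at 2 weeks. Cyp2a12 (0.00583), Cxcl13 (0.00873), Cyp2c40 and Prpf4b (both 0.0136), Cd46, Luc7l2 and Rapgef4 (each 0.0209), Cyp2c69 (0.0412), Cyp7a1 and Ugt3a2 (both 0.0466) were lower. Several of these rest on 1 library. Cxcl13, the B cell chemokine, had 0.794, 1.08 and 30.1 CPM at 1 week and 0.0939, 0.118 and 0.289 CPM at 2 weeks, so the third library of 1 week carried the difference (log2 fold change −5.67, and −2.19 without it). Cyp2c69 had 2.82, 19.2 and 1.48 CPM and then 0.164, 0.047 and 0.315 CPM (−5.15, and −3.31 without 1 week replicate 2). Cyp2c40 had 2.16, 7.51 and 0.445 CPM and then 0.117, 0.212 and 0.131 CPM (−4.08, and −2.75 without 1 week replicate 2). Cyp2c40 and Cyp2c69 are near-identical neighbours on chromosome 19 and reads may have been split between them. The conjugating enzyme Ugt3a2 had 2.52, 3.21 and 1.78 CPM and then 0.587, 0.611 and 0.21 CPM, with no overlap (−2.28).

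The genes of mitosis formed the group with the largest share of members whose libraries did not overlap. Of 38 members tested, 32 (84.2%) had lower values in all 2 weeks libraries than in any 1 week library, against 7.51% of all genes, and none was higher throughout. The median log2 fold change was −1.11 (all genes 0.00), and 35 of the 38 were lower in 3 of 3 same-numbered pairs, against 19.9% of all genes. At an unadjusted p under 0.05 stood 18 members, and 0 passed the adjusted test. Sums here and below are over all members of a list, tested or not. For the 40 mitosis genes the sum was 176, 242 and 197 CPM at 1 week and 99.7, 102 and 100 CPM at 2 weeks. The 2 weeks libraries lay within 3 CPM of one another and all below the lowest 1 week library. Leaving out each HM-Wnt library in turn left 32 to 36 members without overlap. On TPM, where 2.36% of all genes were lower without overlap, 23 members were.

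Cdc20 (GRCm39 chr4:118290098-118294610), the activator of the anaphase-promoting complex, had 8.38, 11.3 and 12 CPM at 1 week and 4.09, 5.2 and 5.01 CPM at 2 weeks (log2 fold change −1.14, SE 0.28, unadjusted p = 0.00142). Kif11, the kinesin that pushes spindle poles apart, had 3.86, 2.52 and 2.93 CPM and then 0.963, 0.776 and 0.944 CPM (−1.74, SE 0.46). Kif2c, a microtubule depolymerase at centromeres, had 2.6, 3.45 and 3.13 CPM and then 1.34, 0.964 and 1.05 CPM (−1.41, SE 0.39). None of the 3 genes overlapped between the times. Top2a, the topoisomerase that untangles sister chromatids, had 8.43, 11.2 and 9.52 CPM and then 4.3, 4.63 and 5.48 CPM (−1.01). Cenpa, the histone of centromeres, had 15.1, 14.9 and 15.8 CPM and then 9.93, 9.24 and 9.23 CPM (−0.69). Mki67, the Ki-67 antigen of cycling cells, had 6.57, 7.94 and 4.49 CPM and then 2.11, 2.61 and 3.02 CPM (−1.28), and the mitotic cyclin Ccnb1 had 5.83, 12.3 and 10.2 CPM and then 2.94, 3.53 and 3.15 CPM (−1.55). In bulk libraries, fewer dividing cells and less of these transcripts in each dividing cell cannot be told apart. All of these except Cdc20 and Cenpa were picked after their values were seen.

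Promoters of mitotic genes are known to carry a cell cycle homology region with the core TTTGAA or TTCGAA, bound by the DREAM and MuvB complexes, and the CCAAT box of NF-Y. Only a part of the mitosis genes found in the RefSeq table could be shown, so members with a smaller p may be missing. The promoters of 3 mitosis genes with small p values are shown to let these letters be seen in place. They are the 250 bases before the RefSeq transcript start on build GRCm38.p6 (a different build from that of the counts), printed along the gene's strand with matches on either strand in capitals. TTCAAA is TTTGAA and ATTGG is CCAAT on the other strand, and no match of one motif overlapped a match of the other.
Cdc20, chr4:118437344-118437593, minus strand: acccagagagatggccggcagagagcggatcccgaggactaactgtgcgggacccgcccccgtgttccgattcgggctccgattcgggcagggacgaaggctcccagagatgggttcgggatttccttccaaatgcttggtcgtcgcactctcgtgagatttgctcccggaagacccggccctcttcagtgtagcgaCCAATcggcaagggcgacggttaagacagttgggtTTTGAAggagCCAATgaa
Kif11, chr19:37376132-37376381, plus strand: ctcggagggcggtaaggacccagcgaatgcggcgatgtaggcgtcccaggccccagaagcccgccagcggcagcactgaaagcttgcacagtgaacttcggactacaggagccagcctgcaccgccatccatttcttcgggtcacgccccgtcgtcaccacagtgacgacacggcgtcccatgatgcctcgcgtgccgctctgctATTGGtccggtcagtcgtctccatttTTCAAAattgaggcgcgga
Kif2c, chr4:117178773-117179022, minus strand: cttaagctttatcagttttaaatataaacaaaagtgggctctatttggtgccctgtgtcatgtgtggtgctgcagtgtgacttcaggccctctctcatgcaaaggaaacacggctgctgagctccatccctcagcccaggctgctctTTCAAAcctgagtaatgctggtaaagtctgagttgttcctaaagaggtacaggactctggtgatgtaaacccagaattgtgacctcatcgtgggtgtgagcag
In Cdc20 the first base of TTTGAA lay 18 bases before the start, and those of the CCAAT matches 53 and 8 bases before it. In Kif11 TTCAAA began 19 bases and ATTGG 45 bases before the start, and in Kif2c TTCAAA began 103 bases before it. TTTGAA or TTCGAA was present in 35.5% of the 31 promoters of the 30 mitosis genes found in the RefSeq table and in 17.1% of all 32851 promoters. CCAAT was present in 74.2% and 33.8%, and both kinds in 32.3% and 6.02%. These are matches of letters and not binding sites, and no test was made of them.

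Fewer genes of DNA replication than of mitosis were separated by time. Of 39 tested, 11 (28.2%) were lower without overlap and none was higher, and the median log2 fold change was −0.19. Their summed level was 403, 439.7 and 389.5 CPM at 1 week and 321, 339 and 379 CPM at 2 weeks, so that 2 weeks replicate 3 came close to the lowest 1 week library; without it 19 members were lower without overlap, where 12.3% of all genes were. Rrm2 (above) and Tyms, which makes thymidylate, were members without overlap, Tyms with 9.06, 13.2 and 7.98 CPM and then 5, 6.02 and 6.4 CPM (−0.79). Of the p53 targets and cell cycle inhibitors, 3 of 28 were higher and 1 lower without overlap, near the background. Cdkn1a, the inhibitor p21, had 143, 173 and 181 CPM and then 198, 182 and 193 CPM (0.20, adjusted p = 0.711, and 0.13 without 1 week replicate 1).

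**Figure D3:**
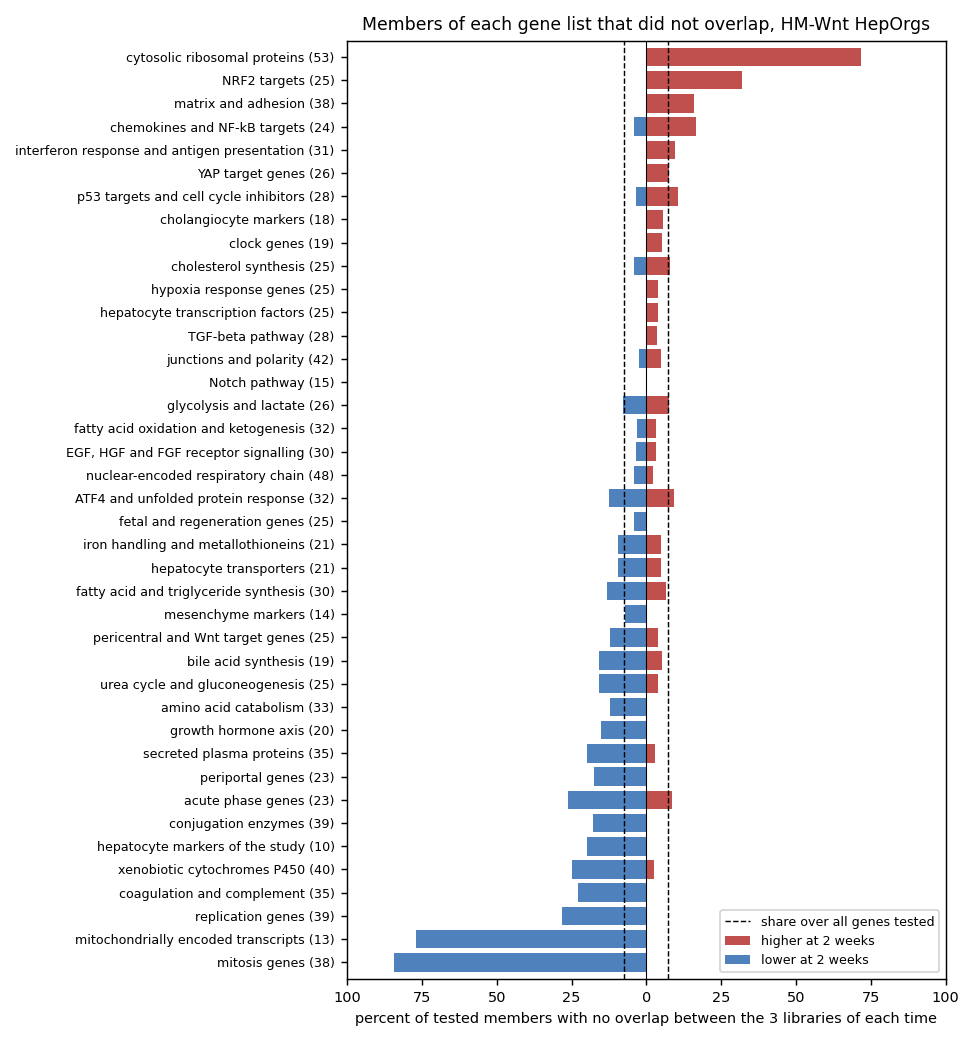
Share of the tested members of each gene list (y axis) whose 3 libraries at 2 weeks all lay above or all below the 3 libraries at 1 week (x axis, percent), with the share over all genes tested (7.24% higher, 7.51% lower) as lines. Mitosis genes (84.2% lower), mitochondrially encoded transcripts (76.9% lower) and cytosolic ribosomal proteins (71.7% higher) reach far beyond the other lists.

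Transcripts of the mitochondrial genome, which encodes subunits of complexes I, III and IV and of the ATP synthase, were lower at 2 weeks in 10 of 13 members without overlap (76.9%), with a median log2 fold change of −0.95, and 11 had an unadjusted p under 0.05. No member passed the adjusted test. Summed, they reached 26746, 41156 and 21683 CPM at 1 week and 17262, 17409.5 and 15003 CPM at 2 weeks. The 1 week libraries ranged widely, with replicate 2 the highest, and the 2 weeks libraries lay close together below them. Without 1 week replicate 2, 11 members did not overlap, and leaving out other HM-Wnt libraries gave 10 to 12. mt-Nd2 (GRCm39 chrM:3914-4951) had 937, 1420 and 779.6 CPM and then 552, 615 and 430.3 CPM (log2 fold change −0.97, SE 0.25). mt-Co1, the catalytic subunit of cytochrome oxidase, had 8148, 8472 and 5695 CPM and then 4995, 4823 and 4611 CPM (−0.63, SE 0.21), and mt-Nd1 had 7222, 9972 and 6934 CPM and then 5485, 5525 and 4067 CPM (−0.68). mt-Nd3 was the member with the smallest difference, with 41.6, 22.8 and 47.7 CPM and then 35, 38.9 and 26.3 CPM (−0.16). mt-Nd6, the 1 messenger on the other strand, was at −1.39, and −0.86 without 1 week replicate 2, but reads of the 2 strands may not be separated, since strand use in counting is not given in the sources used here. Of the nuclear-encoded subunits of the respiratory chain, 1 of 48 tested was higher and 2 lower without overlap, with a median of −0.13. That count rests on single libraries: 14 were lower and 1 higher without 1 week replicate 1 (13.1% and 13.2% of all genes) and 11 were lower without 2 weeks replicate 2 (14.8%), whereas 9 were higher without 2 weeks replicate 3 (11.2%) and 22 without both libraries that stood apart (15.4%).

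Cytosolic ribosomal proteins lay on the other side. Of 53 tested, 38 (71.7%) were higher at 2 weeks without overlap, against 7.24% of all genes, and none was lower. With RLE size factors 35 were, and on TPM, where the background is 21.5%, 52. The median log2 fold change was 0.52 with a narrow range, 0.16 to 0.73 over the 53 members, and 0 passed the adjusted test. Their sum was 20211, 18561 and 26541 CPM at 1 week and 30203, 30881 and 28888 CPM at 2 weeks, all 2 weeks libraries above all 1 week libraries. Rpl28 had 126, 94.1 and 167 CPM and then 219, 216 and 203 CPM (0.72, SE 0.26). Rplp0, the P0 stalk protein, had 1661, 1583 and 1973 CPM and then 2180, 2235 and 2000 CPM (0.30, SE 0.18), and Rpl13 had 768, 601 and 1041 CPM and then 1250, 1289 and 1180 CPM (0.63). In each the third library of 1 week lay closest to the 2 weeks libraries. Myc, which drives ribosome production and is a Wnt target, had 37.9, 32.1 and 34.9 CPM and then 52, 58.9 and 47.2 CPM, without overlap (0.59, SE 0.30, adjusted p = 0.556). Any link of Myc to the ribosomal transcripts was not tested. Replicate 2 of 1 week, which stood apart, had the lowest ribosomal and the highest mitochondrial sum. Without it 39 ribosomal members were higher without overlap, where 9.71% of all genes were. The part of RNA or library quality in the ribosomal and mitochondrial differences was not tested. Ribosomal protein genes have many near-identical pseudogene copies, so single members are uncertain.

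**Figure D4:**
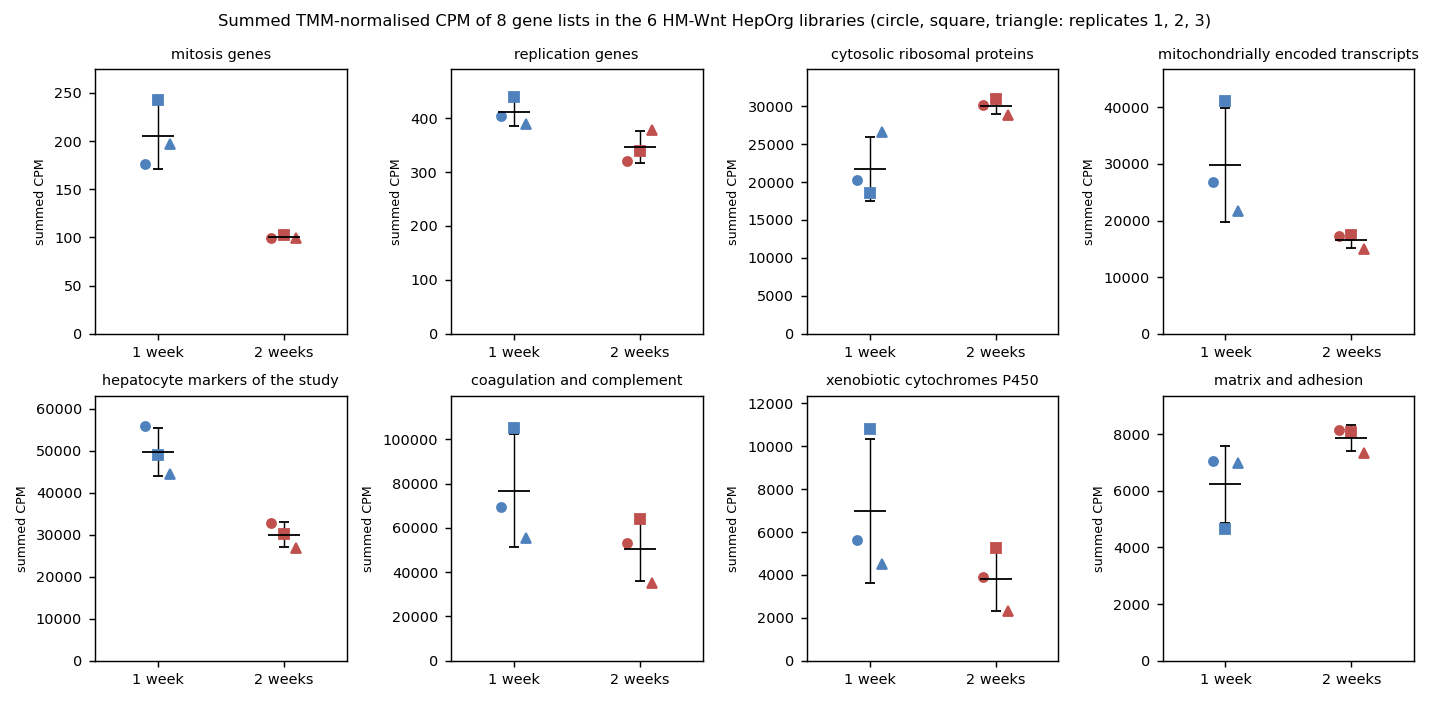
Summed TMM-normalised CPM (y axis, from 0) of 8 gene lists in the HM-Wnt libraries at 1 week and 2 weeks; each point is 1 library, the black bar the mean and the error bar the SD over 3 libraries. Mitosis genes sit at 99.7 to 102 CPM at 2 weeks, below all 1 week libraries (176 to 242), and cytosolic ribosomal proteins sit above all of theirs.

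Hepatocyte markers were lower at 2 weeks in most members, although few reached a separation of the groups. Of the 10 markers the study uses, 9 were lower in 3 of 3 same-numbered pairs (background 19.9%), 2 were lower without overlap, and the median log2 fold change was −0.67. The summed level was 55795, 49069 and 44377 CPM at 1 week and 32887, 30260.5 and 26937 CPM at 2 weeks, which did not overlap. Alb, albumin, had 24897, 14379 and 21502 CPM and then 13964, 8763 and 14578 CPM (−0.70, SE 0.35, 95% interval −1.47 to 0.06, adjusted p = 0.556), an overlap through 1 week replicate 2. Apoa1, the main protein of HDL, had 12306, 17951 and 11290 CPM and then 8080, 10628 and 7388 CPM without overlap (−0.67, SE 0.62, and −0.44 without 1 week replicate 2). Mup20, a major urinary protein, had 2172, 2812 and 1297 CPM and then 827, 594 and 539 CPM (−1.68), although near-identical Mup genes may share its reads. Cyp3a11, the main CYP3A of mouse liver, had 1119, 3616 and 894 CPM and then 736, 1223 and 352 CPM (−1.28), with the highest value in 1 week replicate 2, and was at −0.38 without that library. Hpx, hemopexin, had 10711, 5459 and 5815 CPM and then 6272, 5357 and 2241 CPM (−0.66, and −0.27 without 1 week replicate 1 or −0.33 without 2 weeks replicate 3), and Abcb4, the phospholipid pump of the bile canaliculus, 284, 205 and 218 CPM and then 209.9, 193 and 175 CPM (−0.29, and −0.12 without 1 week replicate 1). Hnf4a itself overlapped between the times, with 185, 130.4 and 141 CPM and then 145, 185 and 137 CPM (0.04, 95% interval −0.42 to 0.49, adjusted p = 0.953). The 25 hepatocyte transcription factors as a group had a median of 0.02, with 1 higher and 0 lower without overlap. Cebpb, which responds to acute phase and stress signals, had 5.86, 14.6 and 21.1 CPM and then 62.1, 11 and 81.6 CPM (1.89). It overlapped, since 2 weeks replicate 2 lay below 1 week replicates 2 and 3.

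Secreted plasma proteins took 26.3% to 32.2% of all counts at 1 week and 20.2% to 26.0% at 2 weeks. Of 35 tested, 7 were lower and 1 higher without overlap, and the median log2 fold change was −0.44. Without 1 week replicate 3 it was 16 lower, and without 2 weeks replicate 2 it was 17 (background 17.3% and 14.8%). Trf, transferrin, had 118405, 188700 and 112544 CPM and then 97790, 107931 and 74918 CPM (−0.58, SE 0.30). It did not overlap, and without 1 week replicate 2, its highest library, it was at −0.30. Fgl1, a hepatokine, had 2832, 3480 and 3076 CPM and then 1681, 2168 and 1272 CPM (−0.87, SE 0.23). Among coagulation and complement genes 8 of 35 (22.9%) were lower and 0 higher without overlap (median −0.57), with 18 and 19 lower without those same 2 libraries. F9, the coagulation factor lacking in haemophilia B, had 159.8, 179 and 128 CPM and then 92.3, 109.8 and 66.7 CPM (−0.80), and Fgg, fibrinogen gamma, had 14289, 31638 and 11004 CPM and then 8633, 11973 and 6434 CPM (−1.07, and −0.49 without 1 week replicate 2). Among acute phase genes 6 of 23 were lower and 2 higher without overlap (median −0.60). Lrg1, a member, had 6997, 10392 and 6927 CPM and then 5033, 4954 and 3840 CPM (−0.81), and haptoglobin, Hp, had 21127, 17342 and 15026 CPM and then 16134, 14626 and 6839 CPM (−0.51, and −0.21 without 2 weeks replicate 3).

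Cytochromes P450 of drug and steroid metabolism had a median log2 fold change of −0.71, with 10 of 40 lower (25.0%) and 1 higher without overlap. Their sum was 5641, 10785 and 4504 CPM at 1 week and 3887, 5241 and 2299.9 CPM at 2 weeks, so the groups overlapped, and each 2 weeks library lay below the 1 week library of its number. Without 1 week replicate 3, 18 members were lower without overlap, where 17.3% of all genes were, and without 2 weeks replicate 2 it was 22, where 14.8% were. Cyp2c70, which hydroxylates bile acids in mice, had 228, 451 and 189 CPM and then 101, 132 and 63 CPM (−1.55, SE 0.46). Cyp2e1, a pericentral enzyme, had 328, 372 and 88.9 CPM and then 176, 111 and 55.1 CPM (−1.20), with replicate 3 the lowest at either time. Cyp1a1, the target of the aryl hydrocarbon receptor, was highest in replicate 1 and lowest in replicate 3 at either time, with 284, 81.8 and 57.7 CPM and then 248, 162 and 48.6 CPM (0.12). Conjugating enzymes were lower without overlap in 7 of 39 and higher in 0 (median −0.28), and among bile acid synthesis genes 3 of 19 were lower and 1 higher (median −0.43). Cyp7a1, the rate-limiting enzyme of bile acid synthesis, was low throughout, with 9.5, 3.29 and 1.15 CPM and then 0.916, 0.799 and 0.262 CPM (−2.72, and −1.63 without 1 week replicate 1).

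Transporters and pumps of the hepatocyte membrane were lower without overlap in 2 of 21 members (9.52%) and higher in 1 (4.76%). These shares are near those over all genes (7.51% and 7.24%). The median log2 fold change was −0.29. In 3 of 3 same-numbered pairs 11 members were lower, where 19.9% of all genes were, and 2 higher, where 17.2% were. Slco1b2, a basolateral uptake carrier for bile acids and drugs, had 425, 333 and 286 CPM and then 272, 159 and 114 CPM (−0.94, SE 0.30). Abcc2, the canalicular pump for conjugates, had 264, 241 and 197 CPM and then 181, 209 and 185 CPM (−0.29, and −0.17 without 1 week replicate 1), and Abcb11, the bile salt export pump, 40.2, 27 and 7.36 CPM and then 12.9, 18.4 and 2.49 CPM (−1.13, and −0.57 without 1 week replicate 1 or −0.66 without 2 weeks replicate 3). Both overlapped, as did Anpep, an aminopeptidase of the canalicular membrane, with 79.3, 35.4 and 42.4 CPM and then 49.7, 43.5 and 30.2 CPM (−0.35). Genes of the urea cycle and gluconeogenesis had a median of −0.27, with 4 of 25 lower (16.0%) and 1 higher (4.0%) without overlap, against the same background. Fbp1, a key enzyme of gluconeogenesis, had 437, 545 and 482 CPM and then 399, 437 and 212 CPM (−0.48, and −0.22 without 2 weeks replicate 3), and arginase, Arg1, had 20.2, 17 and 2.61 CPM and then 5.38, 5.71 and 0.236 CPM (−1.79). Fabp1, the fatty acid carrier of hepatocytes, had 606, 1333 and 363 CPM and then 238, 308 and 79.7 CPM (−1.88, SE 0.63, and −1.21 without 1 week replicate 2). In Arg1, Abcb11 and Fabp1 the third replicate was the lowest at either time.

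Matrix and adhesion genes had a median log2 fold change of 0.41, with 6 of 38 (15.8%) higher and 0 lower without overlap. Over all genes it was 7.24% and 7.51%. In 3 of 3 same-numbered pairs 14 were higher, where 17.2% of all genes were, and 0 lower, where 19.9% were. Lamb3 (GRCm39 chr1:192890007-193027705), the beta 3 chain of laminin, had 2.3, 1.12 and 1.68 CPM and then 5.94, 4.44 and 5.3 CPM (1.59, SE 0.32, 95% interval 0.92 to 2.31, unadjusted p = 0.000308). Lama3, the alpha 3 chain, had 0.274, 0.116 and 0.364 CPM and then 1.01, 0.87 and 1.05 CPM (1.75, SE 0.52). In both the lowest 2 weeks library lay above the highest 1 week library, and both had an adjusted p of 0.556. The heparan sulphate proteoglycans Sdc4, with 214, 165 and 151 CPM and then 244, 250.4 and 270.3 CPM (0.53), and Sdc1, with 652, 317 and 688 CPM and then 719.8, 739 and 819.8 CPM (0.46, and 0.18 without 1 week replicate 2), did not overlap either. Without both libraries that stood apart, 10 members were higher and 6 lower without overlap, and the background was 15.4% and 18.1%. Smaller groups separate more easily, so these counts cannot show whether the absence of lower members depended on those 2 libraries. Without 1 week replicate 3, 12 members were higher (background 16.1%), and without 2 weeks replicate 2, 13 (15.2%). Lamb3, Lama3 and Sdc4 were picked after their values were seen.

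Signalling and junction groups had few members without overlap. YAP target genes had a median of 0.44 and genes of the TGF-beta pathway one of 0.43, with 2 of 26 and 1 of 28 higher and 0 lower without overlap, shares near or below the background; without 2 weeks replicate 3 the YAP median was −0.03, and without both libraries that stood apart the TGF-beta median was −0.04. Junction and polarity genes had a median of 0.11. Cdh1, E-cadherin, had 215, 128 and 205 CPM and then 221, 201 and 275 CPM (0.35, adjusted p = 0.599, and 0.15 without 1 week replicate 2 or 0.21 without 2 weeks replicate 3). Ier3, an early response gene, had 242, 118 and 264 CPM and then 319, 298 and 386 CPM without overlap (0.69, and 0.41 without 1 week replicate 2). Peak1, a pseudokinase of the cytoskeleton, had 25.8, 32.5 and 27.2 CPM and then 91.7, 17 and 84.5 CPM (1.18). Without 2 weeks replicate 2 it was the 1 gene that edgeR called over the leave-out fits (1.63, adjusted p = 0.0329, and 0.0329 to 1 over all alternatives).

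Targets of NRF2, the regulator of the defence against oxidants and electrophiles, were higher without overlap in 8 of 25 members (32.0%) and lower in 0, with a median of 0.22. Srxn1, sulfiredoxin, had 35, 45.2 and 43.7 CPM and then 54.7, 50.4 and 92.2 CPM (0.67, and 0.35 without 2 weeks replicate 3), and Txnrd1, thioredoxin reductase, 90.8, 119 and 111 CPM and then 163, 131 and 208 CPM (0.65). Tkt, transketolase of the pentose phosphate pathway, had 420.3, 276 and 541 CPM and then 625, 573 and 649 CPM (0.58, and 0.36 without 1 week replicate 2), and Nqo1, a quinone reductase, 9.91, 15.2 and 13.4 CPM and then 16.6, 15.5 and 24.4 CPM (0.55, and 0.32 without 2 weeks replicate 3). The gaps between the groups were narrow in Nqo1 and Srxn1, and 4 members had an unadjusted p under 0.05. The summed level overlapped, at 10097 to 11352 CPM at 1 week and 10154 to 11194 CPM at 2 weeks, and the glutathione transferases Gstp1 and Gstm1 were at −0.05 and 0.06.

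Interferon response and antigen presentation genes had a median of 0.42, with 3 of 31 higher without overlap (9.68%, near the 7.24% of all genes). At an unadjusted p under 0.05 stood 7 members, all higher, where 3.83% of all genes were. The median was −0.01 without 2 weeks replicate 1, the library that carried the interferon-induced genes. Ifit1 had 5.45, 8.64 and 4.34 CPM at 1 week and 182, 7.71 and 10.5 CPM at 2 weeks (log2 fold change 3.44, and 0.57 without 2 weeks replicate 1), and Ifit3 had 0.575, 0.697 and 0.728 CPM and then 45.2, 0.894 and 3.2 CPM (4.53, and 1.55 without it). Ifit3b, a near-identical neighbour of Ifit3 that can share its reads, had 0.11, 0.0387 and 0.101 CPM and then 16.4, 0.447 and 1.55 CPM (5.52, and 2.97 without it). H2-K1, an MHC class I heavy chain, had 1111, 1039 and 1341 CPM and then 1523, 1647 and 1381 CPM (0.38), and the peptide transporter Tap1 had 28, 18.6 and 26.9 CPM and then 54.8, 36.2 and 28.5 CPM (0.70, and 0.40 without 2 weeks replicate 1), neither with overlap. Cxcl1, a chemokine for neutrophils, had 167, 181 and 148 CPM and then 73.6, 121 and 70.4 CPM, lower without overlap (−0.90, SE 0.24, adjusted p = 0.556).

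Pericentral and Wnt target genes, which beta-catenin drives in the cells around the central vein, had a median of 0.01, with 1 of 25 higher and 3 lower without overlap. Axin2, a direct target of beta-catenin, had 1.51, 0.62 and 1.37 CPM and then 1.57, 0.964 and 1.55 CPM (0.21, 95% interval −0.93 to 1.36), and Lgr5, a receptor of R-spondins, 12.2, 7.71 and 5.03 CPM and then 6.01, 5.46 and 7.82 CPM (−0.37). Glul, the glutamine synthetase of the pericentral cells, had 128, 95.9 and 142 CPM and then 108, 51.7 and 52 CPM (−0.79, and −1.23 without 2 weeks replicate 1). Periportal genes had a median of −0.48, with 4 of 23 lower and 0 higher without overlap. Gls2, the periportal glutaminase, had under 2.5 CPM in every library, 0.822, 0.658 and 1.52 and then 1.67, 1.2 and 2.31 CPM (0.75, and 1.18 without 1 week replicate 3 or 0.49 without 2 weeks replicate 3).

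Bile duct markers overlapped between the times. Of 18 tested, 1 was higher (5.56%) and 0 lower without overlap, against 7.24% and 7.51% of all genes. Krt19, the keratin of duct cells, had 5.23, 3.8 and 1.33 CPM and then 1.93, 8.35 and 20.7 CPM (1.58, and 0.58 without 2 weeks replicate 3), Krt7 had 3.67, 3.52 and 0.121 CPM and then 1.27, 5.95 and 13.9 CPM (1.53, and 0.58 without it or 0.98 without 1 week replicate 3), and Epcam had 11.1, 16 and 7.52 CPM and then 13.6, 9.24 and 34.3 CPM (0.72, and −0.01 without it). Replicate 3 of 2 weeks was the highest of the 6 libraries in these 3 genes. Spp1, osteopontin, had 5251, 13890 and 9255 CPM and then 6400, 4735 and 12625 CPM (−0.26). Without Spp1 the bile duct markers summed to 404, 543 and 505 CPM and then 503, 432 and 828 CPM. Sox9, a transcription factor of duct cells and of regenerating hepatocytes, had 14.2, 19.4 and 14.4 CPM and then 20.1, 19.1 and 23 CPM (0.37). The immune marker Cd68, a lysosomal protein of macrophages, had 15.2, 16.5 and 17.5 CPM and then 34.5, 17.4 and 40.4 CPM (0.90). The median of the bile duct markers was 0.36, and −0.04 without 2 weeks replicate 3. The part of these cells' transcripts in the other differences was not tested.

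In MM, edgeR called 2 genes between the weeks (0.0154%), Acot2 and Aspg. The difference between the 2 changes with time (MM minus HM-Wnt) was tested in the same fit, and 0 genes passed (0.0%), with 951 (7.32%) at an unadjusted p under 0.05 and a smallest adjusted p of 0.392. DESeq2 called 39 genes, 16 with a positive and 23 with a negative difference. Mitochondrially encoded transcripts held the largest share at an unadjusted p under 0.05, 11 of 13, with a median log2 fold change of −0.95 in HM-Wnt and 0.25 in MM. For mt-Nd2 the values were −0.97 and 0.21 (difference 1.18, adjusted p = 0.671). Mitosis genes had medians of −1.11 in HM-Wnt and −1.13 in MM, with 2 of 38 at that p, and in MM 11 of 38 were lower without overlap, where 8.68% of all genes were (9.05% higher). Ribosomal proteins had medians of 0.52 and 0.01, with 0 of 53.

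Other lists with many members at an unadjusted p under 0.05 for that difference were of metabolism, Wnt targets and matrix. Hypoxia response genes had medians of 0.22 in HM-Wnt and −0.71 in MM, with 13 of 25, and glycolysis genes had 0.14 and −0.39, with 10 of 26. Ndrg1, a hypoxia-induced gene, was at 0.35 and −2.26 (adjusted p of the difference 0.593). Fatty acid oxidation genes had −0.09 and 0.43, with 9 of 32, and in MM 14 of the 32 were higher without overlap, against 1 in HM-Wnt. Pericentral and Wnt target genes had 0.01 and −0.87, with 7 of 25, and Lgr5 had −0.37 and −3.65 (adjusted p of the difference 0.392). Matrix and adhesion genes had 0.41 and −0.11, with 8 of 38. Cyp2s1 had 1.76 and −1.81 and Niban2 1.91 and −0.35, with adjusted p values of the difference of 0.392 and 0.605. None of these single differences passed edgeR's adjusted test. DESeq2 called the difference in Cyp2s1 (adjusted p = 0.000354), Lgr5 (0.00122), Ndrg1 (0.00768) and Niban2 (0.0219).

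**Figure D5:**
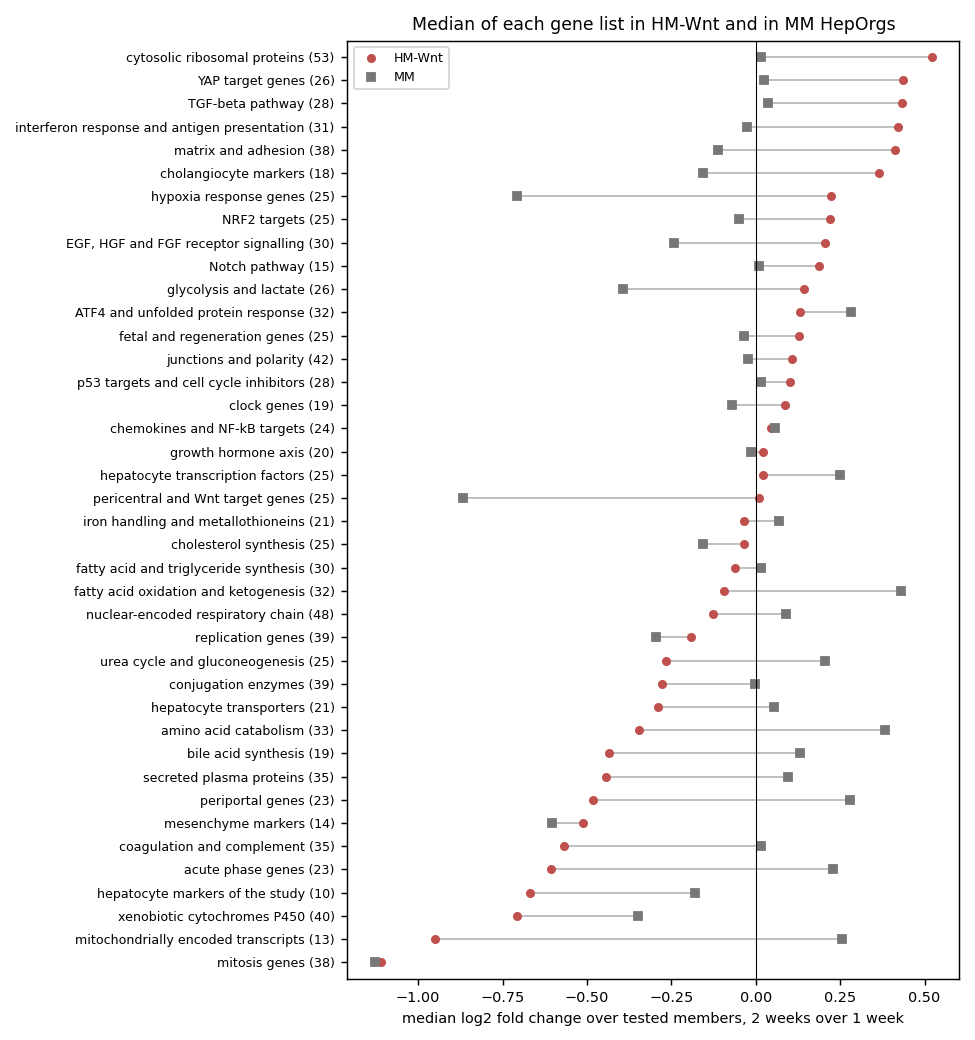
Median log2 fold change (2 weeks over 1 week, x axis) over the tested members of each gene list (y axis) in HM-Wnt and in MM HepOrgs. The markers lie close together for mitosis genes (−1.11 and −1.13) and apart for mitochondrially encoded transcripts (−0.95 and 0.25) and hypoxia response genes (0.22 and −0.71).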

How the data were processed

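Bulk RNA-seq of HepOrgs was analysed from 1 deposited table. Per the labels and the study's methods, the authors made SMART-seq2 libraries, used STAR with GRCm39 for alignment and featureCounts for counting per gene. The deposited counts are whole reads per gene, and the deposited TPM were computed by the authors from counts and a gene length. That length lies within 5% of the whole gene span for 80.8% of genes, so levels are not compared between genes. The naming rule is an exception, since it set a least log2 CPM and ranked the members of lists by mean TPM. Of the libraries in the table, 10 have no sample in the labels used here and entered no step.

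Counts of the 12 HepOrg libraries entered 1 fit of edgeR 4.0.16 under R 4.3.3, with 1 mean per condition. Settings were TMM scaling, low-count filtering by filterByExpr (at least 10 counts, total at least 15) and a prior count of 2, followed by the quasi-likelihood test (Benjamini-Hochberg adjustment over all 12989 genes, threshold 0.05). Alternatives used RLE size factors, DESeq2 1.42.0, other filters, limma 3.58.1 on log2 TPM, other sets of libraries, the replicate number as a block, a least fold change and left-out libraries. Added after the values were seen were voom with sample quality weights, a fit without both libraries that stood apart, and the counts of members without overlap under other scalings and libraries. The test code was checked on simulated counts.

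The members and the 43 gene lists were chosen with earlier results of these data known, so lists are described by counts and medians without a test. Genes were named by rule: up to 15 a direction past the threshold, filled with the 8 of smallest unadjusted p (log2 CPM averaging 3 or more, no overlap between times, no provisional names), genes the study names, and the most abundant or lowest-p members of lists. Further genes were added after their values were seen, among them all that DESeq2 called and most genes named as examples of a list. Some genes are counted in the lists but are not reported here by their own values.

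Replicate numbers were checked for pairing. Deviations from the group means correlated at 0.181 to 0.224 in 3 of 3 same-numbered HM-Wnt pairs and over 0.1 in 18 of 18 pairs over the 12 libraries, against 2 of 36 pairs with different numbers. What a number stands for is not stated in the labels.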

Additional observations from a re-analysis of the deposited data

How the results depend on the processing

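DESeq2 called 15 genes between the times, 39 for the difference between the media and 5 members of the gene lists, where edgeR called 0 in each; it gave no adjusted p to 4702 genes between the times and to 1345 for the media, and the cause of the difference was not tested. In edgeR and limma, 0 genes were called between the times with RLE size factors, either filter on low counts, log2 TPM with either pseudocount, a least fold change, only the 6 HM-Wnt libraries, all 27 libraries, voom quality weights, or without both libraries that stood apart. Leaving out 1 library gave 0 to 1 call (Peak1, without 2 weeks replicate 2). The genes at an unadjusted p under 0.05 ranged from 200 (27 libraries) to 2047 (replicate block), with 518 without 1 week replicate 2, 1949 without 1 week replicate 3, 670 and 617 without 2 weeks replicate 1 or 3, and 356 without both that stood apart. With the replicate block 0 genes were called between the times, also with the 6 HM-Wnt libraries alone (1389 at an unadjusted p under 0.05). Between the media 0 were called with it (1754). The block thus changed no call, but it did change the p values. In edgeR the smallest adjusted p between the times was 0.0655 with the block and 0.556 without it. The standard errors and intervals given are from the fit without the block.

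Of 100 named genes, 89 kept the sign of their fold change under 19 alternatives and 11 did not. Hnf4a was at −0.051 with voom weights, and Axin2 at −0.18 without both libraries that stood apart. Over the fits that each left out 1 library the log2 fold change ranged from −0.11 to 0.22 for Hnf4a, −0.07 to 0.43 for Axin2, −0.42 to 1.16 for Cyp1a1, −0.56 to 0.10 for Anpep, −0.76 to 0.13 for Spp1, −0.41 to 0.067 for mt-Nd3, −0.012 to 1.05 for Epcam, −0.61 to 0.038 for Lgr5, −0.15 to 0.12 for Gstp1, −0.0082 to 0.16 for Gstm1 and −0.13 to 0.60 for Ndrg1. The medians of 43 of 43 lists moved by less than the spread between pairs with RLE size factors, of 42 with the block, of 38 on log2(TPM + 1) relative to the median of all genes and of 29 without both libraries that stood apart. With 3 libraries a time, the 95% interval reached a median of 0.453 to either side over genes whose log2 CPM averaged 3 or more. Many differences below that size could not be resolved, and none above it passed edgeR's adjusted test with all libraries. Calls at low counts depend on the tool.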

Other observations

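Some genes of the NF-kB pathway, which the report does not describe, had higher values at 2 weeks without overlap, 4 of 24 tested (16.7%). Over all genes it was 7.24%. In 1 member, Cxcl1, the values were lower (4.17%, against 7.51% of all genes). By fold change 13 of the 24 were higher and 11 lower. The genes given here were picked after their values were seen. Tnf, the cytokine, had 0.986, 0.581 and 1.05 CPM at 1 week and 1.86, 1.58 and 3.49 CPM at 2 weeks (log2 fold change 1.35), and Tnfaip3, the feedback inhibitor A20, had 7.59, 6.43 and 5.64 CPM and then 11.9, 7.85 and 9.26 CPM (0.56). Relb had 9.09, 2.59 and 9.58 CPM and then 12.1, 10.5 and 12.8 CPM (0.72), and Nfkb2, its partner, had 14.0, 3.87 and 15.0 CPM and then 17.1, 16.3 and 18.7 CPM (0.66), with 1 week replicate 2 low in both and log2 fold changes of 0.34 for Relb and 0.26 for Nfkb2 without it. None passed the adjusted test, and the median of the 24 genes was 0.04.

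Of 4 equal groups of genes by span, the group with the longest had a median log2 fold change of −0.09, and the others 0.01 to 0.05; across genes, which are not independent replicates, Spearman's correlation of span and fold change was −0.13. The reporter eGFP had 1 count in 1 HM-Wnt library and tdTomato had 0 in all.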
